A study of Mus musculus with 18 samples.

Results

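The genes described here are 10 genes that carry, restrain or answer signalling through the transcription factor NF-kB, of 55487 genes counted in 18 RNA-seq libraries of T23, a prostate adenocarcinoma line of the mouse. They were taken by name, with earlier results of these data known: the subunit genes Nfkb1, Nfkb2 and Relb, the feedback genes Nfkbia, Tnfaip3 and Birc3, and the effector genes Ptgs2, Csf1, Vcam1 and Icam1. All 10 symbols were found among the Ensembl identifiers of the count files, and 9 had enough counts to be tested, Icam1 being the exception. The libraries fall into 6 groups of 3, and every group holds T23 cells, the same single line throughout. In the first group T23 cells were co-cultured with fibroblasts and received both enzalutamide (ENZA), an androgen receptor antagonist, and isoliquiritigenin (ISO), a plant chalcone. The others were T23 cells with fibroblasts and ENZA, with SPARC-deficient fibroblasts (SparcKO), with wild-type fibroblasts, with ENZA and no fibroblasts, and alone. Doses, times, and whether the cell types were separated before RNA extraction are not given in the sources used here. The descriptions of both co-culture groups that received ENZA call the fibroblasts human, while their titles carry the fibroblast name of the wild-type co-culture, so comparisons across that line of the design assume the same fibroblasts.

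NF-kB is a family of dimeric transcription factors held in the cytoplasm by inhibitor proteins of the I-kappa-B type. Stimuli such as tumour necrosis factor or interleukin-1 lead to degradation of the inhibitor, entry of the dimer into the nucleus and transcription of target genes, among them the genes of the inhibitor itself and of enzymes that end the signal. A second, slower arm runs through the kinase NIK and yields dimers of RelB with the processed Nfkb2 product. In tumour tissue the pathway is known for inflammatory, survival and adhesion genes in both carcinoma cells and fibroblasts.

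The NF-kB dimer binds a 10-base element called the kappaB site, so the sequence before the start of these genes was read for it. The consensus searched was GGG, a purine, any base, any base but G, a pair of pyrimidines and CC, on both strands. RefSeq (GRCm38.p6) upstream windows of 250 bases were found for 7 of the 10 genes, and 4 of these 7, Nfkb2, Nfkbia, Tnfaip3 and Csf1, held at least 1 match, against 6.73% of the 27025 genes in the same table. The looser pattern, GGG and CC around any 5 bases, was in all 7, but also in 48.7% of all genes. The genes were chosen by name for this pathway, so these shares describe them and test nothing. A gene counted if any of its windows matched, and Nfkb2 and Tnfaip3 have more than 1 window. The windows of Nfkbia, the gene of the inhibitor, and of Csf1, the most abundant of the 10, are shown in full with the consensus match in capitals, and that of Ptgs2 is shown beside them because this gene moved opposite to the others under ISO. Each is written 5′ to 3′ on the strand of its gene and ends at the base before the start. The Nfkbia and Csf1 matches are on the opposite strand, so their capitals are the reverse complement of the consensus.
Nfkbia, chr12:55492648-55492897, minus strand: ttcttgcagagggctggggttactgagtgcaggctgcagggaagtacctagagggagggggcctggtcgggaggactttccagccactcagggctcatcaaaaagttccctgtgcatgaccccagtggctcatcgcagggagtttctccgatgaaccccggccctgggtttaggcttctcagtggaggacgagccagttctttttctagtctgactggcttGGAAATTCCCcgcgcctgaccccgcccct
Csf1, chr3:107760470-107760719, minus strand: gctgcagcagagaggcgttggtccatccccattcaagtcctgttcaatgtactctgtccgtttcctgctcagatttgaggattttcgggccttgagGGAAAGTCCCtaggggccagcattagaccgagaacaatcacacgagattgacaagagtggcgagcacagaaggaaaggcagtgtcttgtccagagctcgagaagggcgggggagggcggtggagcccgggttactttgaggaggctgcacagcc
Ptgs2, chr1:150099781-150100030, plus strand: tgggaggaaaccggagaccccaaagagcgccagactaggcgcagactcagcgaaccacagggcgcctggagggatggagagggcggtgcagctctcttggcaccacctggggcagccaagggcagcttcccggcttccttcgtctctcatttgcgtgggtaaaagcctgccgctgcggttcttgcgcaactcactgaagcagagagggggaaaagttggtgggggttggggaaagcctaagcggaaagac

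The Nfkbia match lay 29 to 20 bases before the start and the Csf1 match 154 to 145 bases before it. No consensus match was in the windows of Ptgs2, Birc3 and Icam1, which says only that these letters are not in those stretches. Tnfaip3 and Nfkb2 have more than 1 start in the table and more than 1 match, and the printed stretches lie within the GENCODE span of each gene. For Tnfaip3 the match 12 to 3 bases before one of its starts is given, and for Nfkb2 the match 39 to 30 bases before one of its starts, which reads the same on both strands, each with 10 flanking bases on each side. A further Nfkb2 match on the opposite strand, 38 to 29 bases before the same start, overlaps the printed one, with its last base in lower case. Another Nfkb2 match lay nearer to that start, 11 to 2 bases before it. The printed Tnfaip3 match is on the strand opposite to its gene, so its capitals are the reverse complement of the consensus. A match is a description of the letters and not evidence of binding.
Tnfaip3, chr10:19015403-19015432, minus strand: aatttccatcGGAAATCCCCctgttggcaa
Nfkb2, chr19:46304688-46304717, plus strand: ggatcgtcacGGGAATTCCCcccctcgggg

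Library totals ranged from 16.1 to 26.7 M counts. In ENZA replicate 2, 26.4% of the counts lay on 1 ribosomal RNA gene, against at most 0.138% in the other 17 libraries. Calls of the 9 tested genes that change without it are therefore given. T23 cells alone carried all 8 mesenchymal markers at 1 CPM or more but only 1 of 8 epithelial markers, Krt19 at 9.55 CPM, with Epcam, Krt8, Krt18 and Cdh1 below 1 CPM in all 18 libraries, which goes against the label of a carcinoma line. T23 cells had their own Sparc, which stood between 2586 and 3208 CPM in the 18 libraries (3031 ± 63.7 with SparcKO and 3069 ± 21.2 with wild-type fibroblasts, SD, n = 3), so this transcript does not check the loss of Sparc in the fibroblasts. Of 8 macrophage and leukocyte markers, 1 (Cd68) reached 1 CPM in T23 cells alone, and Adgre1 and Tyrobp had 0 counts in all 18 libraries. Of 8 endothelial markers, 1 (Kdr, 5.47 CPM) reached 1 CPM there. Summed levels of epithelial, leukocyte and endothelial markers given below therefore rest mainly on 1 gene each. Over the 18 libraries these averaged 9.20 CPM (Krt19), 4.70 CPM (Cd68) and 3.88 CPM (Kdr), so the sums do not measure the amount of a cell type. The mesenchymal sums rest mainly on Col1a1, Col1a2, Col3a1 and Vim (means of 9664, 9103, 4966 and 3587 CPM). The next marker, Pdgfra, averaged 1162 CPM. In bulk RNA of this kind, fewer cells of a type and less RNA per cell cannot be told apart, nor can T23 transcripts be told from those of any mouse fibroblasts in the same library.

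Levels differed widely among the 10 genes when set per kilobase of exon (RPKM, with normalised library sizes, mean over 18 libraries). Csf1, which encodes the macrophage growth factor CSF-1, stood highest at 151 RPKM, followed by Nfkbia at 52.6, Nfkb2 at 46.1, Ptgs2 at 28.9 and Vcam1 at 23.7. Nfkb1 had 12.5 RPKM and Relb 8.06, while Birc3 with 3.79 and Tnfaip3 with 3.10 RPKM were the lowest of the 9 tested genes. Icam1, the gene of an adhesion molecule for leukocyte integrins, had 0 to 5 counts per library and 21 in all, at most 0.247 CPM (counts per M counts of the normalised library size). A count of 0 allows up to 0.108 to 0.272 CPM (3 counts of the normalised library size), so no difference in Icam1 between the groups was detectable at this depth. Csf1r, the gene of the CSF-1 receptor, had 0 to 6 counts per library, and Itga4, an integrin chain gene for binding VCAM-1, had 1 to 7. Other receptor genes for these products were measured, with 884 to 1118 CPM of the integrin chain gene Itgb1, 9.28 to 16.6 CPM of Itgb2 and 3.61 to 7.49 CPM of the prostaglandin E receptor gene Ptger4.

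A single test over all 6 groups called all 9 tested genes, with adjusted p between 3.36e-11 for Tnfaip3 and 2.79e-05 for Nfkb2 (edgeR quasi-likelihood F test with Benjamini-Hochberg adjustment), while 54.3% of all 13600 tested genes were called by it. Tnfaip3 spanned the widest range, 2.91-fold between its highest and lowest group means, followed by Ptgs2 at 1.90-fold, Relb at 1.76-fold and Csf1 at 1.71-fold. Nfkb1 spanned the least, 1.31-fold. In 8 of the 9 genes the 3 libraries with ISO lay below all 15 others, a position held by 10.1% of all tested genes, the exception being Ptgs2. The 3 SparcKO libraries lay above all 15 others in 3 genes, Tnfaip3, Ptgs2 and Csf1, against 5.39% of all tested genes.

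**Figure D1:**
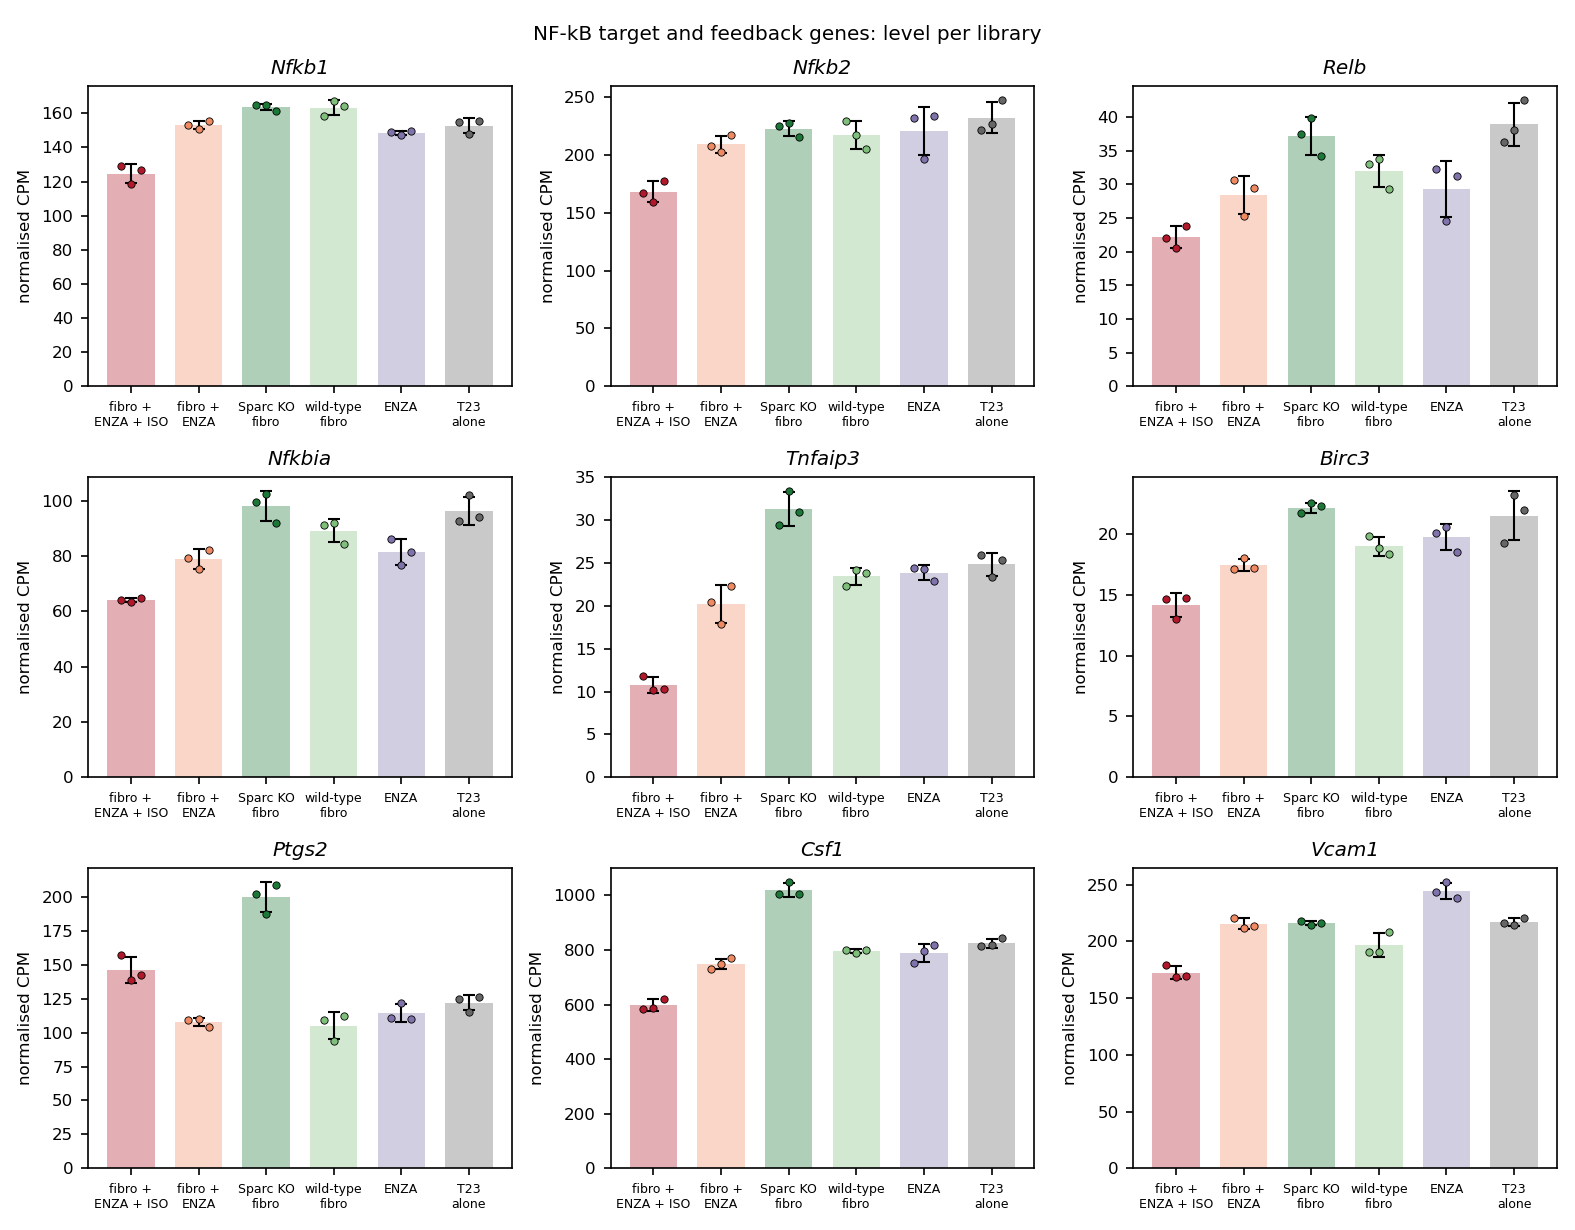
Normalised counts per M counts (CPM) of the 9 tested genes in the 6 groups, one panel per gene; bars are group means with SD, dots are the 3 libraries of a group. The ISO libraries are lowest in every panel except that of Ptgs2, and the SparcKO libraries are highest for Tnfaip3, Ptgs2 and Csf1.

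Adding ISO to the ENZA co-culture, the comparison that asks what this compound does on top of ENZA and fibroblasts, came with lower levels of the subunit genes, the feedback genes, Csf1 and Vcam1, and a higher level of Ptgs2. Of the 9 tested genes 8 fell and 1 rose, and the ranges of both groups were apart for all 9. Of all genes, 26.5% were called in this comparison, 13.6% lower and 12.9% higher, and ranges were apart for 40.5%. The median log2 fold change was -0.31 over the 9 genes, against 0.00 over all tested genes.

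Tnfaip3, which encodes the ubiquitin-editing enzyme A20 that ends NF-kB signalling, differed most. It had 11.8, 10.2 and 10.2 CPM in the libraries with ISO, against 20.5, 17.8 and 22.3 CPM in those with ENZA and fibroblasts. All 3 ISO libraries were well below the lowest ENZA co-culture library, a 1.87-fold lower level (log2 -0.90 ± 0.09 SE, edgeR adjusted p 6.18e-08). Nfkbia, the gene of the inhibitor that holds NF-kB in the cytoplasm, had 64.2, 63.4 and 64.8 CPM with ISO, against 79.2, 75.2 and 82.3 CPM without it. It was 1.23-fold lower (log2 -0.30 ± 0.06, adjusted p 0.000394), and the 3 ISO libraries differed by less than 2 CPM among themselves. Birc3, a ubiquitin ligase gene of the inhibitor-of-apoptosis family that acts at the tumour necrosis factor receptor, had 14.6, 13.0 and 14.8 CPM with ISO, against 17.1, 18.0 and 17.2 CPM without it (log2 -0.30 ± 0.08, adjusted p 0.00700).

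Among the subunit genes, Relb, which encodes the partner of the processed Nfkb2 product, had 22.0, 20.6 and 23.8 CPM with ISO, against 30.6, 25.2 and 29.5 CPM in the ENZA co-culture. The gap between its ranges was small, and the fold change was log2 -0.36 ± 0.10 (edgeR adjusted p 0.00725). Nfkb2 had 167, 159 and 178 CPM with ISO, against 207, 202 and 217 CPM without (log2 -0.31 ± 0.06, adjusted p 0.000591). Nfkb1, the subunit gene of the fast arm, had 129, 118 and 127 CPM with ISO, against 153, 151 and 155 CPM without (log2 -0.30 ± 0.04, adjusted p 1.61e-05). All 3 subunit genes thus lay apart between the groups, by 1.23- to 1.28-fold.

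Csf1 had 585, 587 and 622 CPM with ISO, against 731, 747 and 769 CPM without. The groups did not overlap, and Csf1 was 1.25-fold lower (log2 -0.32 ± 0.05, edgeR adjusted p 2.49e-05). Vcam1, the gene of an adhesion molecule for leukocyte integrins, had 179, 169 and 169.6 CPM with ISO, against 221, 212 and 214 CPM without (log2 -0.32 ± 0.05, adjusted p 1.36e-05). Ptgs2, which encodes the inducible cyclooxygenase of prostaglandin synthesis, went the other way, with 157, 139 and 142 CPM under ISO, against 109.6, 109.7 and 104 CPM without. It was 1.36-fold higher (log2 0.44 ± 0.07, adjusted p 1.82e-05), and its lowest ISO library exceeded every library of the ENZA co-culture.

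Shares of other pathway lists called with ISO are set against that of all tested genes, and a share near it is no result about the list. Of 18 tested inhibitor and feedback genes, 4 fell and 1 rose, 27.8% of the list against 26.5% of all tested genes, including Traf1, an adaptor gene of the receptor complex (15.5 ± 2.03 CPM with ISO against 27.7 ± 0.258 CPM without, SD, n = 3; log2 -0.84 ± 0.10) and Nfkbie, another I-kappa-B gene (log2 -0.61 ± 0.09). Among 13 kinase and core genes 1 fell (7.69% of the list), Map3k14, which encodes NIK, the kinase of the slower arm (38.8 ± 0.830 CPM with ISO against 55.0 ± 2.81 CPM without; log2 -0.50 ± 0.06, edgeR adjusted p 1.48e-06). The 22 receptor and adaptor genes, 40.9% of them called, split into 5 higher, led by the Toll-like receptor gene Tlr2 (log2 0.73 ± 0.10), and 4 lower, among them Il1rap (-0.48 ± 0.08), the co-receptor gene for interleukin-1, and Traf2 (-0.39 ± 0.08). Of 4 tested ligand genes 1 fell, Tnfsf11, the RANKL gene (2.99 ± 0.501 CPM against 5.42 ± 1.43 CPM; log2 -0.84 ± 0.18). Tnf had at most 1 count in any library and Il1b had 0 in all 18.

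Of 27 other known targets, 10 fell and 5 rose with ISO, 55.6% of the list against 26.5% of all tested genes. The complement gene C3 rose (165 ± 4.28 CPM with ISO against 109 ± 7.21 CPM without, SD, n = 3; log2 0.60 ± 0.06), whereas the protease genes Plau (log2 -0.57 ± 0.06) and Mmp9 (-0.52 ± 0.06) fell. In the prostaglandin pathway, 3 of 8 tested genes rose and 1 fell. Ptgs1, the constitutive cyclooxygenase gene, had 47.1 ± 2.64 CPM with ISO against 27.7 ± 1.13 CPM without (log2 0.76 ± 0.08, edgeR adjusted p 1.18e-07), so both cyclooxygenase genes rose. The exporter gene Abcc4 rose as well (log2 0.54 ± 0.06) and the prostacyclin synthase gene Ptgis fell (-0.53 ± 0.06). Of 8 tested partners of CSF-1 and of the adhesion molecules, 4 fell and 2 rose, with Il34, the gene of the other ligand of the CSF-1 receptor, at log2 -0.75 ± 0.11, and the membrane linker genes Ezr at -0.44 ± 0.08 and Msn at -0.33 ± 0.06.

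All 9 calls held under every alternative tried, also without ENZA co-culture replicate 1, the only library of these 6 that belongs to the first of 2 numbering series in the sample titles (the index restarts after 16). The largest adjusted p in that case was 0.0487, for Relb. Over every alternative the largest edgeR adjusted p was 0.0498, for Birc3 with a library left out. With the numbering series as a term the largest was 0.0477, for Relb, so the calls of these 2 genes lay close to the threshold. Other features moved with ISO: the summed level of 8 epithelial markers was 2.07 to 3.19 CPM with ISO against 6.10 to 8.48 CPM without, that of 8 mesenchymal markers 22185 to 22621.0 against 26422 to 27873 CPM, and that of 8 endothelial markers, higher with ISO, 6.56 to 6.71 against 4.02 to 4.50 CPM. Over the 18 libraries the epithelial and endothelial sums rest mainly on Krt19 and Kdr. Mitochondrial genes took 3.42% ± 0.536 against 2.32% ± 0.667 of the counts (SD, n = 3). Their part in the result was not tested.

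**Figure D2:**
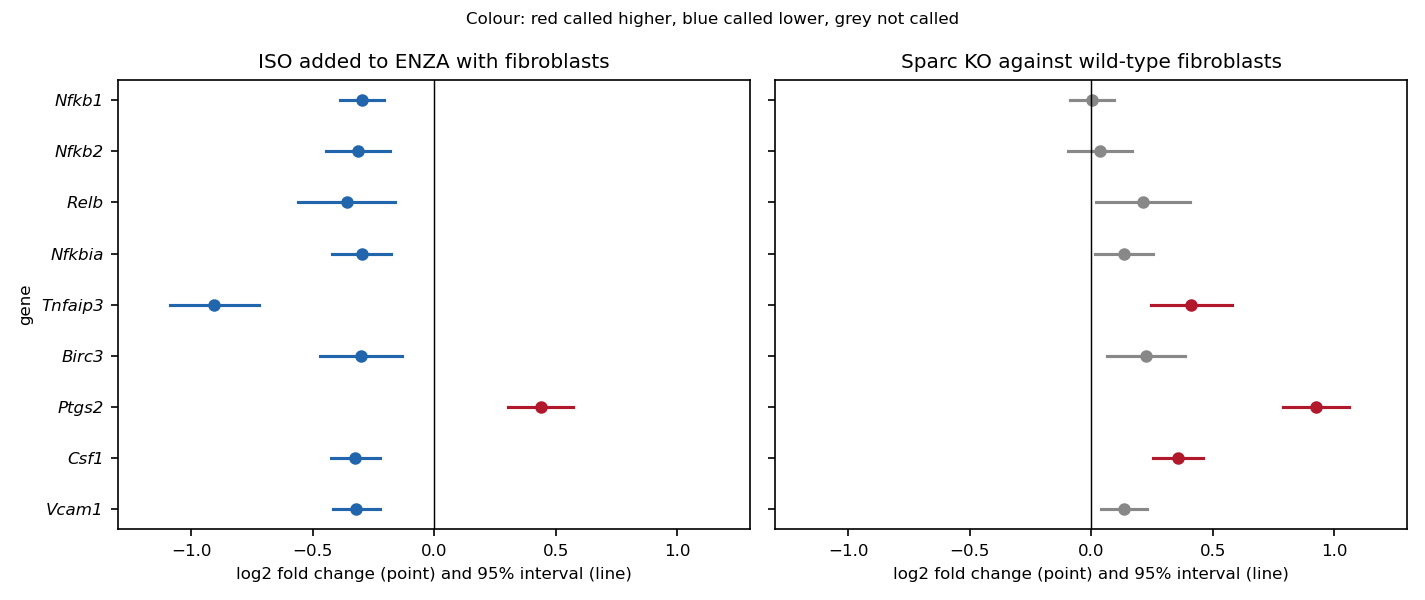
Log2 fold change of each tested gene with its 95% interval, for ISO added to ENZA and fibroblasts on the left and SparcKO against wild-type fibroblasts on the right; red marks genes called higher, blue called lower, grey not called. On the left 8 intervals lie below 0 and that of Ptgs2 above it, and on the right Ptgs2, Tnfaip3 and Csf1 are the 3 called genes.

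SPARC-deficient against wild-type fibroblasts, the comparison that asks what the loss of this secreted matrix protein in fibroblasts does, came with higher levels of Ptgs2, Tnfaip3 and Csf1. Of the 9 tested genes 3 rose and 0 fell, where 11.5% of all tested genes were called, 6.72% higher and 4.79% lower. DESeq2 called 4 of the 9, adding Vcam1 (adjusted p 0.0139), and 12.3% of all genes it tested. Ranges were apart for 6 of the 9, all with SparcKO higher, against 30.4% of all tested genes in either direction. The median log2 fold change was 0.21 over the 9 genes, against -0.01 over all tested genes.

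Ptgs2 had 202, 187 and 209 CPM with SparcKO fibroblasts, against 109, 93.8 and 113 CPM with wild-type fibroblasts. Every SparcKO library was far above the highest wild-type one, and the level was 1.90-fold higher (log2 0.93 ± 0.07, edgeR adjusted p 1.45e-09). Tnfaip3 had 29.4, 33.3 and 30.9 CPM with SparcKO, against 22.3, 24.2 and 23.8 CPM with wild-type fibroblasts (log2 0.41 ± 0.08, adjusted p 0.00133). Csf1 had 1007, 1048 and 1005 CPM with SparcKO, against 799, 787 and 800.1 CPM with wild-type fibroblasts. The wild-type libraries were within 13 CPM of each other, and Csf1 was 1.28-fold higher (log2 0.36 ± 0.05, adjusted p 2.62e-05).

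The other 6 genes did not pass the test. Birc3 had 21.7, 22.5 and 22.3 CPM with SparcKO, against 19.8, 18.8 and 18.3 CPM with wild-type fibroblasts, so its ranges were apart, but the adjusted p was 0.0648 (log2 0.22 ± 0.08, edgeR). Vcam1 was similar, with 218, 214 and 216 CPM against 191, 191 and 209 CPM (log2 0.13 ± 0.05, adjusted p 0.0636). Without ENZA replicate 2 in the fit, a library outside this comparison, 5 genes were called, with Birc3 at adjusted p 0.0446 and Vcam1 at 0.0333. That fit called 15.0% of all tested genes. Birc3 also passed with only both co-cultures in the fit (0.0455), and Vcam1 passed without wild-type replicate 3 (0.0190) and with DESeq2 as the test (0.0139). Nfkbia, with 99.7, 102 and 91.9 CPM against 91.1, 91.9 and 84.4 CPM, overlapped between the groups (log2 0.14 ± 0.06, 95% interval 0.02 to 0.25, adjusted p 0.134). Relb had 37.4, 39.8 and 34.2 CPM with SparcKO, against 33.0, 33.7 and 29.3 CPM with wild-type fibroblasts (log2 0.21 ± 0.09, adjusted p 0.155). For Nfkb1 and Nfkb2 the intervals of the log2 difference were -0.09 to 0.09 and -0.09 to 0.17.

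In the same comparison 3 of 8 prostaglandin pathway genes rose and 0 fell, where 11.5% of all tested genes were called. These were Ptges, the gene of the prostaglandin E synthase coupled to the inducible cyclooxygenase (72.1 ± 4.03 CPM with SparcKO against 46.7 ± 1.13 CPM with wild-type fibroblasts, SD, n = 3; log2 0.63 ± 0.06, edgeR adjusted p 3.96e-07), Pla2g4a, the phospholipase gene that frees arachidonic acid (0.31 ± 0.05), and Ptger4, a prostaglandin E receptor gene (0.63 ± 0.15). The call of Ptger4 was lost without 1 of the 6 libraries (adjusted p 0.0778). Of 27 other targets 7 rose and 2 fell (33.3% of the list), led by C3 (182 ± 10.9 CPM against 86.3 ± 5.93 CPM; log2 1.07 ± 0.06), the immediate-early gene Ier3 (98.0 ± 3.40 CPM against 48.9 ± 1.39 CPM; 1.01 ± 0.08) and Cxcl1, a neutrophil chemokine gene (1.37 ± 0.12). Receptor and adaptor genes counted 3 higher of 22 (13.6%, also near that share), the interleukin-1 receptor gene Il1r1 (0.38 ± 0.07), the tumour necrosis factor receptor gene Tnfrsf1a (0.24 ± 0.05) and the kinase gene Irak4 (0.26 ± 0.08, lost without any 1 of 5 of the 6 libraries). Of 18 inhibitor and feedback genes 2 rose, 11.1% of the list and so near the share of all tested genes. They were Bcl3 (0.46 ± 0.12), a nuclear I-kappa-B relative, and Rnf11 (0.27 ± 0.07), a partner of A20, with calls lost without any 1 of 3 and of 2 libraries.

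Epithelial markers also moved here, with summed levels of 17.1 to 19.7 CPM with SparcKO fibroblasts against 13.0 to 14.9 CPM with wild-type fibroblasts. So did mesenchymal markers, at 32604 to 34473 CPM against 29783 to 31273 CPM. Macrophage and leukocyte markers summed to 4.78 to 8.13 CPM against 3.28 to 4.70 CPM. Endothelial markers were lower, at 4.09 to 4.47 CPM with SparcKO against 5.21 to 6.35 CPM with wild-type fibroblasts. The part of these markers in the result was not tested.

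Set against T23 cells alone, the SparcKO co-culture again had 3 of 9 genes higher and 0 lower, where 9.74% of all tested genes were called, 6.1% higher and 3.65% lower. Ranges were apart for 4 of the 9, against 32.8% of all tested genes. It shares the SparcKO libraries with the comparison above, and the libraries of T23 cells alone with those of ENZA and of wild-type fibroblasts described after it, so these results are not independent. Ptgs2 was higher by log2 0.71 ± 0.06 over the 125, 115 and 126 CPM of T23 cells alone (edgeR adjusted p 6.37e-08), and Csf1 by 0.31 ± 0.05 over 814, 817 and 844 CPM (adjusted p 0.000184). Tnfaip3 was higher by 0.33 ± 0.08 over 25.9, 23.3 and 25.3 CPM (adjusted p 0.00966), a call lost without replicate 2 of T23 cells alone (0.0678) or of SparcKO (0.0674). Nfkb1, the gene nearest to a call among the other 6, differed by 0.10 ± 0.04 (adjusted p 0.171), with 165, 165 and 161 CPM with SparcKO against 155, 148 and 156 CPM in T23 cells alone. C3 (log2 1.04 ± 0.06), Ier3 (0.77 ± 0.08) and Cxcl1 (1.11 ± 0.12) had the smallest p of the other targets, of which 6 of 27 rose and 1 fell. Ptges (0.50 ± 0.06) and Pla2g4a (0.31 ± 0.05) rose among the 8 prostaglandin genes. Of 22 receptor and adaptor genes 4 rose, among them Il1r1 (0.35 ± 0.07), and 2 fell, among them Tlr3 (-0.58 ± 0.14), 27.3% of the list. Of 18 inhibitor and feedback genes 2 rose and 1 fell (16.7%). The 1 that fell, Traf1 (-0.34 ± 0.10), lost its call without any 1 of the 6 libraries. Summed marker levels were apart here too, with epithelial markers at 17.1 to 19.7 CPM with SparcKO against 10.1 to 11.4 CPM in T23 cells alone, mesenchymal markers at 32604 to 34473 against 30792 to 32010 CPM, and endothelial markers at 4.09 to 4.47 against 6.51 to 7.55 CPM. Their part in the result was not tested.

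**Figure D3:**
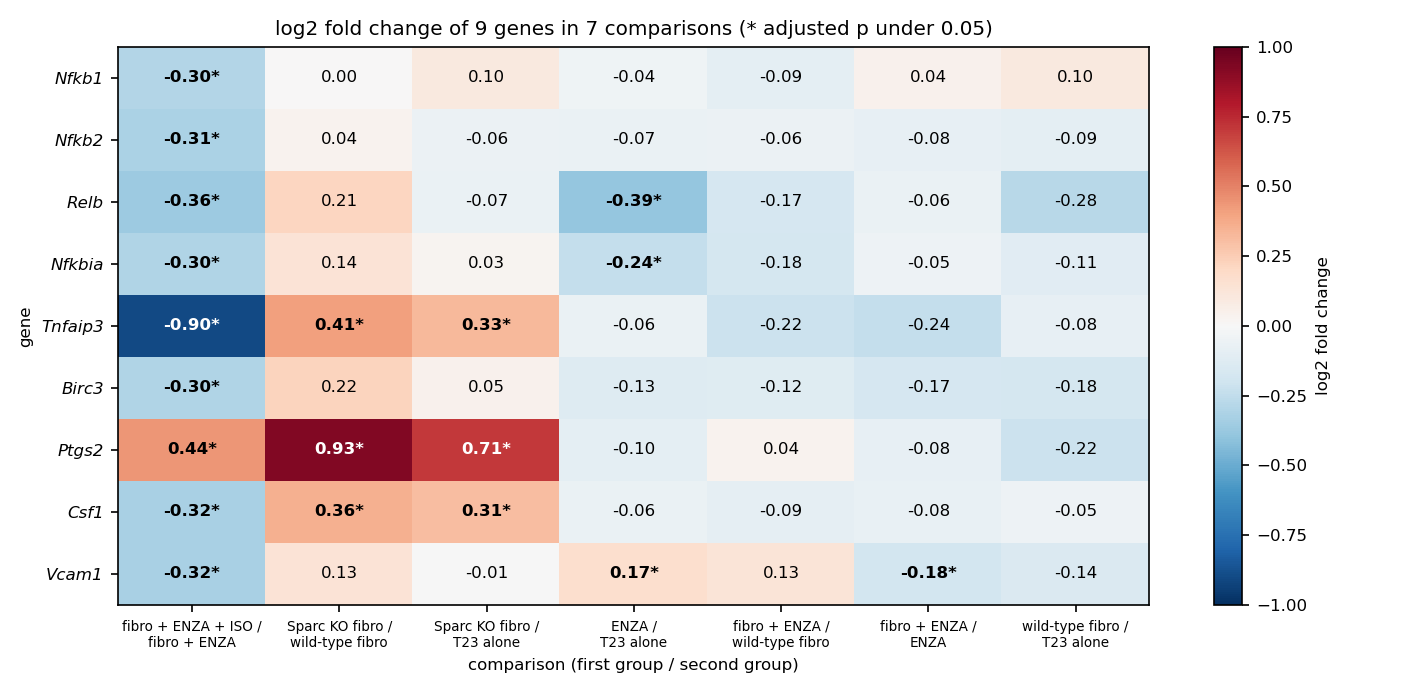
Log2 fold changes of the 9 tested genes (down the page) in the 7 comparisons (across); the colour scale gives the log2 value printed in each cell, and an asterisk marks an adjusted p under 0.05. The column for ISO is filled with calls, 8 lower and 1 higher, and the columns for SparcKO hold calls at Tnfaip3, Ptgs2 and Csf1.

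ENZA without fibroblasts, against T23 cells alone, came with lower Relb and Nfkbia and higher Vcam1. These 3 of 9 genes were called, 2 lower and 1 higher, where 12% of all tested genes were called, 5.19% lower and 6.84% higher. Ranges were apart for the same 3 genes, against 29.8% of all tested genes. Relb had 32.3, 24.6 and 31.2 CPM with ENZA, against 36.2, 38.0 and 42.5 CPM in T23 cells alone (log2 -0.39 ± 0.10, edgeR adjusted p 0.00917). Its lowest value came from ENZA replicate 2, the library rich in ribosomal RNA, and the groups did not overlap with or without it. Nfkbia had 86.2, 76.7 and 81.4 CPM with ENZA, against 92.7, 102 and 94.0 CPM (log2 -0.24 ± 0.06, adjusted p 0.00854). Vcam1 had 244, 252 and 238 CPM with ENZA, against 216, 214 and 221 CPM (log2 0.17 ± 0.05, adjusted p 0.0174), the highest level of this gene among the 6 groups. With only these 6 libraries in the fit none of the 3 was called (adjusted p 0.0503, 0.0611 and 0.0810 for Relb, Nfkbia and Vcam1). That fit called 5.73% of all tested genes. The calls also ended without replicate 3 of T23 cells alone for Relb (0.0664), without its replicate 2 for Nfkbia (0.0698), and for Vcam1 without its replicate 1 (0.0637) or 2 (0.0722), without ENZA replicate 2 (0.0516) or without a filter on low counts (0.108).

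Tnfaip3, Ptgs2 and Csf1 did not pass in this comparison. Tnfaip3 had 24.4, 24.3 and 22.9 CPM with ENZA against 25.9, 23.3 and 25.3 CPM in T23 cells alone, with a 95% interval of the log2 difference of -0.23 to 0.11. Ptgs2 had 111, 122 and 110.1 CPM with ENZA against 125, 115 and 126 CPM (interval -0.24 to 0.04), and Csf1 had 753, 796 and 819 CPM against 814, 817 and 844 CPM (interval -0.17 to 0.04). Among other targets 4 of 27 rose and 6 fell (37% of the list against 12% of all tested genes), including C3 (log2 0.35 ± 0.06), the stress gene Gadd45b (-0.49 ± 0.09) and Mmp9 (-0.27 ± 0.06). Of 18 inhibitor and feedback genes 3 rose and 0 fell, 16.7% of the list and near the 12% of all tested genes. The 3 were Otud7b (0.22 ± 0.05), Tax1bp1 (0.22 ± 0.06) and Tnip1 (0.22 ± 0.07). The call of Tnip1 was lost without any 1 of the 6 libraries, and that of Tax1bp1 without any 1 of 3. The highest Tax1bp1 level of all 18 libraries, 274 CPM, was that of ENZA replicate 2, the library rich in ribosomal RNA. With single libraries left out its log2 value ran from 0.12 to 0.27 (largest edgeR adjusted p 0.120). In the prostaglandin pathway Abcc4 (0.51 ± 0.07) and Pla2g4a (0.17 ± 0.05) rose and Ptgis (-0.33 ± 0.06) fell, of 8 tested. The call of Ptgis was lost with only these groups in the fit (adjusted p 0.0503), and that of Pla2g4a without any 1 of 3 libraries and in 2 other settings (adjusted p up to 0.113). Of 22 receptor and adaptor genes 1 fell, Tnfrsf12a (-0.26 ± 0.08). Of 8 tested partners of CSF-1 and of the adhesion molecules, Il34 fell (-0.42 ± 0.10) and Itgb7 rose (0.61 ± 0.19). The calls of Tnfrsf12a and Itgb7 were each lost without any 1 of 5 libraries. The lowest Tnfrsf12a level of all 18 libraries, 94.8 CPM, was again that of ENZA replicate 2. With single libraries left out its log2 value ran from -0.38 to -0.15 (largest edgeR adjusted p 0.202). Mitochondrial genes took 2.74% ± 1.16 of the counts with ENZA against 0.924% ± 0.161 in T23 cells alone (SD, n = 3). Summed mesenchymal markers were at 26524 to 29123 CPM with ENZA against 30792 to 32010 CPM, and endothelial markers at 3.97 to 6.05 against 6.51 to 7.55 CPM. The part of these features in the result was not tested.

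With fibroblasts present, ENZA (the libraries that served as reference for ISO) against no ENZA gave 0 called genes of 9 in edgeR, where 7.18% of all tested genes were called, 3.7% higher and 3.49% lower. Ranges were apart for 6 of the 9, against 25.8% of all tested genes. At an unadjusted p under 0.05 there were 4, and DESeq2 called 2, Nfkbia and Vcam1, where it called 8.73% of all genes it tested. Nfkbia had 79.2, 75.2 and 82.3 CPM with ENZA and fibroblasts, against 91.1, 91.9 and 84.4 CPM with wild-type fibroblasts, ranges that were apart (log2 -0.18 ± 0.06, edgeR adjusted p 0.0653, DESeq2 0.0449). Vcam1 had 221, 212 and 214 CPM, against 191, 191 and 209 CPM (log2 0.13 ± 0.05, edgeR adjusted p 0.0910, DESeq2 0.0272). Tnfaip3 had 20.5, 17.8 and 22.3 CPM, against 22.3, 24.2 and 23.8 CPM (log2 -0.22 ± 0.08, adjusted p 0.130). Replicates 2 and 3 of the ENZA co-culture belong to the second numbering series of the titles and the wild-type co-culture to the first. With that series as a term, the log2 difference of Nfkbia was -0.17 (adjusted p 0.414) and that of Vcam1 0.17 (0.255). Among the 27 other targets 1 rose and 4 fell. Those with the smallest p were Sdc4 (-0.30 ± 0.05), C3 (0.33 ± 0.06) and Gadd45b (-0.44 ± 0.09). With the series as a term the call of C3 was lost (edgeR adjusted p 0.192), and those of Sdc4 (0.0427) and Gadd45b (0.0294) were kept. With ENZA, summed epithelial markers were at 6.10 to 8.48 against 13.0 to 14.9 CPM, mesenchymal at 26422 to 27873 against 29783 to 31273 CPM, and endothelial at 4.02 to 4.50 against 5.21 to 6.35 CPM. Mitochondrial genes took 2.32% ± 0.667 against 1.02% ± 0.282 of the counts (SD, n = 3). The part of these features was not tested.

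Whether ENZA acted differently with and without fibroblasts was tested as an interaction. None of the 9 genes was called by edgeR, at an unadjusted p under 0.05 or by DESeq2 (0 in each), and 0.0221% of all tested genes were called. The values ran from -0.15 ± 0.12 for Tnfaip3 to 0.22 ± 0.13 for Relb on the log2 scale, with 95% intervals of -0.40 to 0.09 and -0.06 to 0.49. The fall of Relb and Nfkbia with ENZA is therefore not shown to differ with fibroblasts.

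Wild-type fibroblasts without a drug, against T23 cells alone, gave no call among these genes. Of the 9 genes 0 were called by edgeR or by DESeq2 and 5 had an unadjusted p under 0.05, while 0.515% of all tested genes were called, 0.257% in each direction. Ptgs2 had 109, 93.8 and 113 CPM with wild-type fibroblasts, against 125, 115 and 126 CPM in T23 cells alone, ranges that were apart (log2 -0.22 ± 0.07, edgeR adjusted p 0.173). Relb had 33.0, 33.7 and 29.3 CPM with fibroblasts, against 36.2, 38.0 and 42.5 CPM (log2 -0.28 ± 0.09, adjusted p 0.241). With only these 6 libraries in the fit, both passed (adjusted p 0.0403 for Ptgs2 and 0.0313 for Relb), and 2.6% of all tested genes were called. Ranges were apart for 6 of the 9 genes, 5 lower and Nfkb1 higher, against 20.5% of all tested genes. Summed epithelial markers were at 13.0 to 14.9 CPM with fibroblasts against 10.1 to 11.4 CPM, and endothelial markers at 5.21 to 6.35 against 6.51 to 7.55 CPM. The part of these markers was not tested.

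Under ENZA, fibroblasts against none gave 1 called gene of 9, Vcam1, which fell, where 2.08% of all tested genes were called, 1.14% higher and 0.941% lower. Ranges were apart for 5 of the 9, against 14.9% of all tested genes. Vcam1 had 221, 212 and 214 CPM with fibroblasts and ENZA, against 244, 252 and 238 CPM with ENZA (log2 -0.18 ± 0.05, edgeR adjusted p 0.0422). The call did not hold without any 1 of 5 of the 6 libraries, nor in 4 other settings. Without ENZA replicate 2 the difference of Vcam1 was -0.16 (adjusted p 0.0714). When the fit held a term for the numbering series it was -0.15 (adjusted p 0.487). The difference was larger for Tnfaip3 but did not pass, with 20.5, 17.8 and 22.3 CPM against 24.4, 24.3 and 22.9 CPM (log2 -0.24 ± 0.08, adjusted p 0.170). Of 27 other targets 5 rose and 1 fell, among them the monocyte chemokine genes Ccl2 (233 ± 2.43 CPM with fibroblasts and ENZA against 174 ± 3.76 CPM with ENZA, SD, n = 3; log2 0.42 ± 0.07) and Ccl7 (0.54 ± 0.12), and Mmp9 (0.29 ± 0.06). The calls of all 3 were lost with the series as a term (adjusted p 0.131, 0.131 and 0.453). Summed macrophage and leukocyte markers were at 3.64 to 4.75 CPM with fibroblasts and ENZA against 5.03 to 7.07 CPM with ENZA. The part of these markers was not tested.

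The order of the groups differed between genes, and many neighbours in it overlapped. The subunit gene Nfkb1 had its highest mean with SparcKO (164 ± 2.03 CPM, SD, n = 3), overlapping wild-type fibroblasts, and Vcam1 had its highest with ENZA (245 ± 7.08 CPM), apart from T23 cells alone. The genes Nfkb2 and Relb had their highest mean in T23 cells alone (232 ± 13.4 and 38.9 ± 3.22 CPM, SD, n = 3), but in neither gene was the range apart from that of SparcKO, the next group. The feedback genes Nfkbia and Birc3 had their highest mean with SparcKO, overlapping T23 cells alone, whereas Tnfaip3, Csf1 and Ptgs2 were highest with SparcKO with no overlap to the next group. Ptgs2 alone had ISO in second place (146 ± 9.81 CPM), apart from T23 cells alone at 122 ± 5.76 CPM. At the bottom, ISO was apart from the next group for the other 8 genes.

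Among 10226 genes of at least 5 CPM, those whose pattern over the 18 libraries lay nearest to that of Tnfaip3, the gene of the 10 with the widest range, were Ndrg1, Kif21b, Rab3b, Diras2 and Htra1. The measure was the root mean square difference in log2 CPM after centring each gene, which was 0.0895 for Ndrg1, 0.101 for Kif21b, 0.109 for Rab3b, 0.121 for Diras2 and 0.124 for Htra1. Ndrg1, a gene known to respond to hypoxia and androgens, averaged 77.1 CPM with ISO, 133 CPM with ENZA and fibroblasts, 225 CPM with SparcKO and 176 CPM in T23 cells alone. Htra1, a secreted protease gene, averaged 288, 545, 737 and 590.4 CPM in the same 4 groups. None of the other 8 tested genes of the set was among these 5, and the libraries share depth and group structure, so the likeness is a description.

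Gene positions are those of GENCODE M21 on GRCm38. Nfkb1 (ENSMUSG00000028163) lies at chr3:135584655-135691547 on the minus strand, Nfkb2 (ENSMUSG00000025225) at chr19:46304320-46312385 on the plus strand and Relb (ENSMUSG00000002983) at chr7:19606217-19629438 on the minus strand. The feedback genes Nfkbia (ENSMUSG00000021025, chr12:55489410-55492647), Tnfaip3 (ENSMUSG00000019850, chr10:19000910-19015657) and Birc3 (ENSMUSG00000032000, chr9:7848699-7873186) lie on the minus strand. Ptgs2 (ENSMUSG00000032487) is at chr1:150100031-150108227 on the plus strand, Csf1 (ENSMUSG00000014599) at chr3:107741048-107760469 and Vcam1 (ENSMUSG00000027962) at chr3:116109949-116129688, both on the minus strand, and Icam1 (ENSMUSG00000037405) at chr9:21015985-21028817 on the plus strand. Exons of Nfkb2 overlap genes on the opposite strand, AC114539.1 over 531 bases and Psd over 299 bases, and exons of Vcam1 overlap Gm43109 over 61 bases. Exons of Icam1 overlap Gm47079 over 511 bases, 11.7% of the Icam1 exon length, also on the opposite strand, and Gm47079 had 13 counts in all libraries against 21 of Icam1. The libraries were stranded but the strand setting of the counting is not given in the sources used here. Over all 18 libraries Nfkb2 had 81353 counts, Psd 8562 and AC114539.1 862, and counts from the 2 strands cannot be told apart if the counting ignored strand.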

How the data were processed

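Total RNA was turned into stranded poly(A) libraries (dUTP in the second strand) and run on a NextSeq 550, per the labels' protocols. The authors deposited raw counts per gene, 1 file for each library, listed by Ensembl identifier and not normalised. The submitters' processing notes name the build GRCm38, STAR 2.6.1d for alignment, featureCounts 2.0 and DESeq2; the annotation, strand setting and treatment of multi-mapping reads are not given in the sources used here. GENCODE M21 gave a symbol for 55141 of 55487 identifiers, and the rest held 0.0297% of counts.

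Genes were filtered with filterByExpr (minimum count 10), which left 13600, given TMM scaling factors, and modelled by edgeR 4.0.16 under R 4.3.3 with all 18 libraries and a mean per group (12 residual degrees of freedom, biological coefficient of variation 7.03%). The 7 comparisons and 1 interaction were contrasts tested two-sided with the quasi-likelihood F test. Benjamini-Hochberg adjustment ran over the 13600 genes of each, and called means an adjusted p below 0.05. SE was taken as the absolute log2 fold change divided by the root of F, and intervals are 95%. RPKM used the union of GENCODE exons. The script was tested on simulated data first.

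Alternatives were DESeq2 size factors, DESeq2 1.42.0 as the test, no filter, only the groups compared in the fit, a replicate block, the numbering series of the titles as a term (13 libraries in the first, 5 in the second), each replicate left out, and the fit without ENZA replicate 2. The 10 genes, the 7 pathway lists, the cell type markers and the alternatives were chosen with earlier results of these data known. Named were the 10 genes in every comparison, up to 3 called genes per pathway list by smallest p (not every list in every comparison), Sparc, the 5 genes nearest in pattern to the gene of the set with the widest range, and the most abundant markers. Psd, Gm43109 and the other overlapping genes, the ligand and receptor genes given as counts, and other markers were named after their values were seen.

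No pairing by replicate number was detected: in 0 of 15 pairs of groups were all same-number correlations above 0.1 (range -0.217 to 0.143). Such a cut-off cannot exclude a culture or day shared by libraries of the same number. Replicates differed beyond counting error (chi-square per degree of freedom 2.48 to 12.1, and 569 and 577 with ENZA replicate 2). Nothing in the labels says that replicates were separate cultures, so p-values measure the spread between these libraries, which may be technical. Floors reflect counting error alone, as no molecular identifiers were used.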

Additional observations from a re-analysis of the deposited data

How the results depend on the processing

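Across 72 log2 fold changes of the 9 tested genes and 963 alternative values, 906 kept direction and side of the threshold, 20 lost a call, 11 gained one and 26 changed sign, 0 of them from a called value. Of 19 calls, 14 held under every alternative: all 9 with ISO, 3 with SparcKO against wild-type fibroblasts, and Ptgs2 and Csf1 with SparcKO against T23 cells alone. Of the other named genes, 740 of 842 alternative values kept their call, 102 lost it and 0 changed sign.

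Counts of called genes of the 9 moved as follows. With only the groups compared in the fit, 2 were called for wild-type fibroblasts against T23 cells alone (0 in the fit of all libraries), 0 for ENZA against T23 cells alone (3), 0 for fibroblasts against none under ENZA (1) and 4 for SparcKO against wild-type fibroblasts (3). In the same order, these fits called 2.6%, 5.73%, 0.436% and 15.4% of all tested genes (0.515%, 12%, 2.08% and 11.5% in the fit of all libraries). Without ENZA replicate 2, 5 were called for SparcKO against wild-type fibroblasts (3) and 1 for ENZA in co-culture (0), where DESeq2 called 2. That 1 gene was Nfkbia (edgeR adjusted p 0.0348). The shares of all tested genes also moved, to 15.0% (11.5%) and 10.2% (7.18%), and DESeq2 called 8.73% for ENZA in co-culture. For fibroblasts against none under ENZA, 0 were called without a filter (1.84% of all tested genes) or with the numbering series as a term (0.0809%). The replicate block also gave 0 there and changed no other count. With the block the log2 difference of Vcam1 was -0.18 (edgeR adjusted p 0.0653). Leaving out single libraries gave 1 to 3 for ENZA against T23 cells alone (1 without replicate 2 of T23 cells alone), 0 to 1 for ENZA in co-culture (1 without wild-type replicate 3), 0 to 1 for fibroblasts against none under ENZA, 2 to 3 for SparcKO against T23 cells alone and 3 to 4 for SparcKO against wild-type fibroblasts. The cause of these changes was not tested.

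Sign changes occurred in values close to 0. Nfkb1 with SparcKO against wild-type fibroblasts was -0.0043 without a filter and -0.014 to 0.023 with single libraries left out. Relb for fibroblasts against none under ENZA was 0.042 with the series as a term and -0.16 to 0.016 with single libraries left out, and the interaction of Birc3 was -0.018 with the series as a term and -0.053 to 0.082. For SparcKO against T23 cells alone the ranges were -0.12 to 0.0029 for Relb, -0.0075 to 0.071 for Nfkbia, -0.028 to 0.11 for Birc3 and -0.017 to 0.0070 for Vcam1. They were -0.11 to 0.0062 for Nfkb2 with ENZA, -0.040 to 0.090 for Ptgs2 with ENZA in co-culture, and for the interaction -0.062 to 0.057 for Nfkb2, -0.052 to 0.0072 for Csf1 and -0.058 to 0.0085 for Vcam1.

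Over all genes, the 70 called for wild-type fibroblasts against T23 cells alone became 11 to 336 in other settings, and the 283 for fibroblasts against none under ENZA became 11 to 541. The 977 for ENZA in co-culture ranged from 214, with the series as a term, to 1423, without ENZA replicate 2. The 1636 for ENZA against T23 cells alone ranged from 740, with only its groups, to 1734, with DESeq2 as the test. The 3599 for ISO ranged from 2522 to 4225. The 1566 for SparcKO against wild-type fibroblasts ranged from 857 to 2085 and the 1325 against T23 cells alone ranged from 743 to 2188. The 3 interaction calls ranged from 0 to 99. No thinning of counts was run; Tnfaip3, Birc3 and Relb had 221 to 860 counts per library, and Icam1 was too low to compare.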
